A study of Urocitellus parryii with 44 samples.

Results

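The cold-inducible RNA-binding proteins and the hnRNP, SR, Tra2 and Rbm families were followed in brown adipose tissue of arctic ground squirrels (Urocitellus parryii) in winter torpor and in summer. They were chosen by mouse gene symbol: Cirbp, Tra2a, Tra2b and every symbol that begins with Rbm, Hnrnp or Srsf, on probes that carry a single symbol. This gave 186 of the 38400 probes on the membranes, for 64 of the 11786 genes named by a single symbol, and 185 of the 186 had enough values to be tested. The exception was 1 Hnrnpa1 probe on membrane MA10. The probes fell into 3 for the cold-inducible pair Cirbp and Rbm3, 59 for 19 hnRNP genes (58 tested), 36 for 9 SR genes, 8 for Tra2a and Tra2b and 80 for 32 other Rbm genes. A further 8 probes carried a member's symbol beside others and were not counted.

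The tissue came from 5 winter animals in torpor and 3 summer animals that were active in August, and each RNA was a separate animal's. Radioactively labelled total RNA was hybridised to mouse cDNA probes on 4 membranes, MA07, MA08, MA10 and MA11, each with 9600 spots. For 3 animals, torpid animal 5 and summer animals 1 and 2, the RNA had been split into duplicates a and b, whose log2 values were averaged per animal. Season and activity state changed together and cannot be told apart here. Age, sex and body temperature at sampling were not given in the sources used here. All levels below are log2 of the spot intensity over its column's median, and all differences are torpor minus summer on that log2 scale. A level is a measure of 1 spot and is not set against the level of another spot, apart from the sums of cell type markers.

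Mammalian cells increase CIRBP and RBM3 on mild cooling, and both proteins bind RNA and affect its translation, stability and polyadenylation. The hnRNP proteins coat new transcripts in the nucleus and often repress splice sites, while SR proteins bind exonic enhancers and recruit the splicing machinery. TRA2 proteins are SR-like activators of exon inclusion. The Rbm symbol only records an RNA recognition motif, and its genes have diverse roles in splicing, RNA decay and export.

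None of the 185 tested probes passed the adjusted threshold of 0.05 in limma's test with Benjamini-Hochberg adjustment over all 37848 tested probes, of which 117 passed (0.309%, with 0.259% higher and 0.0502% lower). The smallest adjusted p among the members was 0.10, for a probe of Rbm17. At an unadjusted p under 0.05 there were 23 member probes of 18 genes, 14 higher and 9 lower in torpor, or 12.4% against 11.6% of all tested probes (6.39% higher and 5.18% lower). Without summer animal 2, 27 of 182 member probes had such a p, 11 higher and 16 lower, beside 13% of all probes in that fit. The balance of directions among the members thus turned with that animal. The split by direction over all probes was not counted in that fit. The values of torpid and summer animals did not overlap on 15 member probes, 7 higher and 8 lower, or 8.11% against 8.5% of all tested probes (4.37% higher and 4.13% lower). With all animals both shares, 12.4% and 8.11%, lie near those of the whole membranes. Differences ran from -1.68 to 1.57, and 11 exceeded 1 in size while none reached 2. In simulated data of this design, none of 200 probes changed by 1 was recovered over 37848 probes, 138 of those changed by 2 and 191 of those changed by 3 were. A difference of 1 would therefore mostly have been missed at this number of animals. The simulated probes were drawn from all probes, and detection of a given member depends on its own spread.

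By family, the median difference over probes was 0.38 for the 3 cold-inducible probes, 0.25 for hnRNP, 0.17 for SR, -0.09 for Tra2 and -0.05 for the other Rbm genes, beside 0.02 for all members and 6.5e-05 for all tested probes. The hnRNP and SR medians turned to -0.22 and -0.10 without summer animal 2, and with cyclic loess scaling they were 0.04 and 0.03. The cold-inducible median was 0.15 without summer animal 2 and 0.85 without summer animal 3. Over all members, 96 probes were higher and 89 lower in torpor, and 50% of all tested probes were higher.

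**Figure D1:**
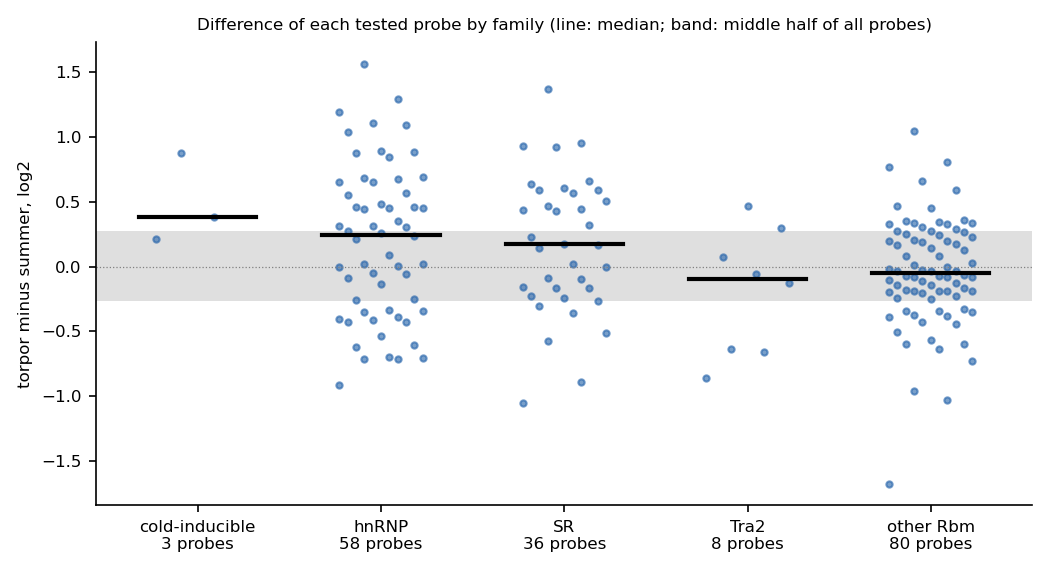
Torpor minus summer difference of each tested probe on the log2 scale, by family. Each dot is 1 probe, black lines are family medians and the grey band holds the middle 50% of all tested probes. The band runs from -0.26 to 0.27. The middle 50% of hnRNP probes runs from -0.34 to 0.63, of SR probes from -0.18 to 0.57 and of other Rbm probes from -0.23 to 0.24. The hnRNP and SR medians are at 0.25 and 0.17 and turn to -0.22 and -0.10 without summer animal 2.

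Cirbp, a glycine-rich RNA-binding protein known for its induction by cold, had 2 probes. Its probe on MA10 (1576) had levels of 1.21, 1.01, 0.69, 1.06 and 0.43 in the torpid animals, against 0.36, -0.35 and -0.01 in the summer animals. Every torpid value lay above every summer value, although torpid animal 5 and summer animal 1 were close to each other. The means were 0.88 ± 0.32 in torpor (SD, n = 5) and -0.001 ± 0.36 in summer (SD, n = 3), a difference of 0.88 ± 0.37 (SE), or 1.84-fold. Its limma adjusted p was 0.37, and the 95% interval of the difference ran from 0.10 to 1.67. The difference ranged from 0.55 to 1.21 over 17 alternative settings.

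The other Cirbp probe, on MA08 (1854), gave -0.34, -0.71, -1.35, 0.01 and -1.32 in torpor and -0.65, -1.08 and -1.15 in summer. The groups overlapped, with torpid animals 3 and 5 below every summer animal, and the difference was 0.22 ± 0.32 (SE), with an adjusted p of 0.84 in limma. This probe lay at the 17.6th percentile of signal on its membrane, and the probe on MA10 at the 60.4th. On the MA08 probe the duplicates of summer animal 2 read -0.08 and -2.09, so that this animal's repeat measurements lay further apart than the lowest and the highest of the 8 animals. The 2 Cirbp probes had the same sign, except that the MA08 probe was at -0.01 with duplicate a alone. On 1 of them the groups did not overlap, as on 8.5% of all tested probes (4.37% higher in torpor).

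Rbm3, the other classical cold-induced member, was measured by 1 probe on MA07 (6637), at the 91.9th signal percentile. Torpid animals had levels of 1.96, 1.59, 1.87, 1.85 and 1.70, against 1.06, 0.82 and 2.35 in summer animals. The torpid animals lay close together, summer animals 1 and 2 lay below all of them and summer animal 3 above all of them. The difference was 0.38 ± 0.31 (SE), with an adjusted p of 0.67 in limma and a 95% interval from -0.31 to 1.07. It was 0.85 without summer animal 3, and 0.09 was the lowest value with any single animal left out. A rise of this spot's signal by 2 on the log2 scale lies outside the 95% interval with all animals. That interval does not bound the change of the transcript itself.

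A probe on MA08 (1111) is annotated to Rbm3os, a transcript named as antisense to Rbm3, and belongs to the other Rbm genes by its symbol. It had -0.10, -0.04, 0.07, 0.14 and 0.22 in torpor and 0.36, 0.26 and 0.29 in summer. All 5 torpid values were below the summer values by little, and the difference was -0.24 ± 0.18 (SE) with an adjusted p of 0.64 in limma. Spots of double-stranded cDNA do not tell strands apart, so this probe and the Rbm3 probe may not measure separate transcripts. The probe is described because of its link to Rbm3 and was chosen after its values were seen.

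**Figure D2:**
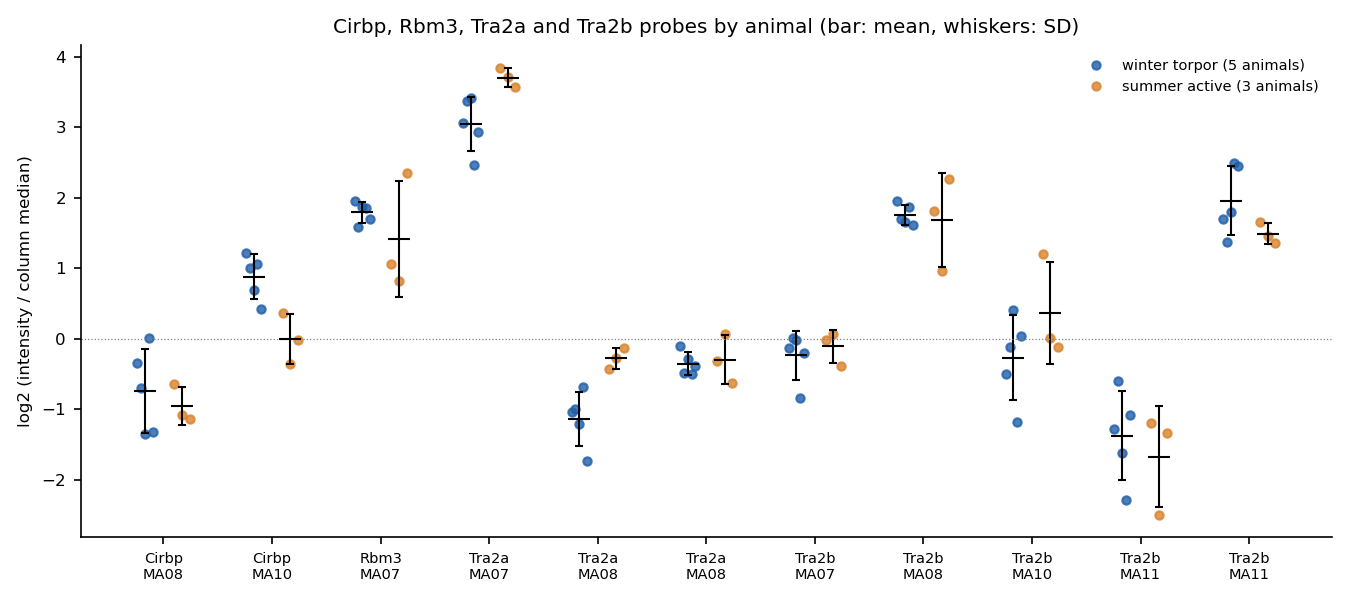
Level of each Cirbp, Rbm3, Tra2a and Tra2b probe in every animal, as log2 of intensity over the column median; blue dots are the 5 torpid animals, orange dots the 3 summer animals, and bars and whiskers are means and SD. The groups do not overlap on 1 Cirbp probe, higher in torpor, and on 2 Tra2a probes, lower in torpor. They do not overlap on 8.5% of all tested probes. No probe passed the adjusted threshold.

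Tra2a was lower in torpor on all 3 of its probes, and on 2 of them the groups did not overlap. Of all tested probes, 8.5% had groups without overlap (4.13% lower in torpor). The probe on MA08 (731) gave -1.04, -1.01, -1.21, -0.69 and -1.73 in torpor, against -0.43, -0.27 and -0.13 in summer. Its difference was -0.86 ± 0.24 (SE), with an unadjusted p of 0.0047 and an adjusted p of 0.21 in limma. The probe on MA07 (3939), at the 98.5th signal percentile, gave 3.07, 3.38, 3.42, 2.46 and 2.94 in torpor and 3.84, 3.71 and 3.57 in summer. Summer levels lay close together there, with torpid animals 2 and 3 next below them. Its difference was -0.66 ± 0.23 (SE), 1.58-fold higher in summer, with an adjusted p of 0.32 in limma. The third probe, on MA08 (7805), had a difference of -0.06 ± 0.22 (SE), overlapping groups and a value of 0.12 without summer animal 2.

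Tra2b, the paralog, had 5 probes with differences from -0.63 to 0.47, 3 of them above 0 and 2 below. The brightest, on MA08 (4979), had 1.95, 1.70, 1.66, 1.87 and 1.61 in torpor and 1.82, 0.97 and 2.27 in summer. Its torpid values lay between those of summer animals 2 and 3, and the difference was 0.07 ± 0.27 (SE). Whether Tra2a and Tra2b differ from each other in their seasonal difference was not tested. The smallest adjusted p of the Tra2b probes was 0.56 in limma.

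Among the hnRNP genes, 12 of 58 probes (20.7%) had an unadjusted p under 0.05 in limma, 9 of them higher and 3 lower in torpor, against 11.6% of all tested probes. None passed the adjusted threshold. The 9 higher probes belonged to Hnrnph2, Hnrnpu and Hnrnpdl (2 each), Hnrnpa2b1, Hnrnpul2 and Hnrnpr, and the 3 lower ones to Hnrnpc, Hnrnpul2 and Hnrnpul1. Hnrnpdl, Hnrnpr and Hnrnpul1 are named after their values were seen, as are Hnrnpm and Hnrnpk below. The groups did not overlap on 3 higher and 2 lower hnRNP probes, or 8.62% against 8.5% of all tested probes. Without summer animal 2, 15 of 57 hnRNP probes had an unadjusted p under 0.05 in limma, beside 13% of all probes in that fit. Of these 15, 5 were higher and 10 lower, so the balance turned round. The split by direction over all probes was not counted in that fit.

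Hnrnph2, which binds G-rich RNA, had 1 clone spotted on both MA08 and MA11. The MA08 spot (4000) gave 1.98, 2.63, 2.61, 2.46 and 2.19 in torpor, against 1.94, 0.59 and 1.30 in summer. The groups did not overlap, although torpid animal 1 and summer animal 1 lay next to each other. The difference was 1.10 ± 0.30 (SE), or 2.14-fold, with an unadjusted p of 0.0033 and an adjusted p of 0.18 in limma. The MA11 spot (3727) gave 1.41, 1.03, 1.44, 2.11 and 1.52 in torpor, against 1.22, -1.92 and 0.50 in summer. Its difference was 1.57 ± 0.55 (SE), with an adjusted p of 0.29. On this spot the groups overlapped through summer animal 1, and summer animal 2 was far below all others. Without summer animal 1 the MA08 spot reached 1.43 with an adjusted p of 0.048, and without summer animal 2 it had 0.75, the lowest value with any single animal left out.

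Hnrnpa2b1, a splicing repressor that also takes part in RNA transport, had 4 probes, 2 higher and 2 lower. Its probe on MA08 (243) gave 2.71, 2.67, 2.50, 2.77 and 2.06 in torpor, against 2.37, 0.64 and 0.72 in summer. Summer animals 2 and 3 lay well below the torpid animals and summer animal 1 lay among them. The difference was 1.30 ± 0.37 (SE), or 2.45-fold, with an adjusted p of 0.20 in limma. It was 1.86 with an adjusted p of 0.0085 without summer animal 1, 0.99 with 0.30 without summer animal 2 and 1.03 with 0.42 without summer animal 3. The 3 other probes, all on MA10, had differences of -0.26, -0.53 and 0.69, each with a standard error of 0.46 to 0.55.

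Hnrnpu, a chromatin-associated scaffold protein, had 6 probes with differences from -0.72 to 1.19, 4 higher and 2 lower. On MA11 (3390) the torpid animals had 1.84, 0.86, 1.61, 1.10 and 1.10, against 0.78, 0.13 and 0.37 in summer. The groups did not overlap, and the difference was 0.87 ± 0.28 (SE) with an adjusted p of 0.25 in limma. The 2 brightest spots outside MA10 carried another clone. The MA08 spot (866) gave 4.14, 4.60, 3.91, 4.54 and 4.06 in torpor, against 4.66, 1.94 and 4.77 in summer, a difference of 0.46 ± 0.54 (SE). Here summer animals 1 and 3 exceeded all torpid animals, and summer animal 2 lay far below them. The MA11 spot of that clone (6161) had a difference of 1.19 ± 0.51 (SE).

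Hnrnpul2, a relative of Hnrnpu, had probes that went opposite ways. On MA08 (2312) torpid animals had -0.02, 0.11, 0.02, -0.15 and 0.12, against -0.37, -0.69 and -1.57 in summer, a difference of 0.89 ± 0.26 (SE) with an adjusted p of 0.22 in limma, and 0.54 without summer animal 3. On MA10 (5905) torpid animals had -1.43, 0.23, -0.28, 0.12 and 0.06, against 0.76, 0.37 and 0.83 in summer, a difference of -0.92 ± 0.42 (SE) with an adjusted p of 0.42. On each probe the groups did not overlap, with torpor above summer on MA08 and below it on MA10. No single direction can be given to this gene.

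Hnrnpc, which binds uridine-rich tracts in introns, had 8 probes, 4 higher and 4 lower in torpor. The brightest, on MA11 (9017), gave 7.20, 7.52, 6.92, 7.15 and 7.03 in torpor, against 7.95, 8.05 and 7.58 in summer. The groups did not overlap, torpid animal 2 and summer animal 3 being close, and the difference was -0.70 ± 0.23 (SE), with an adjusted p of 0.27 in limma. It was -0.20 with quantile normalization (adjusted p of 0.80) and -0.13 with cyclic loess (adjusted p of 0.88). The 7 other probes had differences from -0.42 to 0.45, and the smallest adjusted p among them was 0.44. Hnrnpa3, a relative of Hnrnpa2b1, had 5 probes from -0.71 to 0.89 with adjusted p values of 0.61 or more.

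The SR genes had 3 of 36 probes (8.33%) with an unadjusted p under 0.05 in limma, 2 higher and 1 lower, against 11.6% of all tested probes. There were 0 of the 36 without overlap between the groups, against 8.5% of all tested probes. Srsf10, a splicing regulator whose activity is known to be controlled by phosphorylation, was higher on 6 of its 7 probes. Its probe on MA11 (6856) gave 5.09, 4.80, 4.11, 4.48 and 4.82 in torpor, against 3.20, 4.77 and 1.89 in summer. Summer animals 1 and 3 lay below all torpid animals and summer animal 2 among them. The difference was 1.37 ± 0.50 (SE), or 2.59-fold, with an adjusted p of 0.31, and it was 2.12 with an adjusted p of 0.045 without summer animal 2. Without summer animal 3 it was 0.68 with an adjusted p of 0.65. The only Srsf10 probe with a negative difference, on MA10 (9120), had -0.89 ± 0.50 (SE).

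Srsf1, a founding SR protein, had 5 probes from -0.26 to 0.93. Its probe on MA08 (7328) gave 1.81, 1.78, 1.85, 1.45 and 0.95 in torpor, against 0.58, 1.63 and -0.27 in summer, a difference of 0.93 ± 0.38 (SE) with an adjusted p of 0.38 in limma. Here too summer animal 2 lay among the torpid animals, and the difference was 1.42 without it and 0.47 without summer animal 3. Its brightest probe, on MA07 (9378), gave 3.64, 2.79, 3.54, 3.23 and 3.25 in torpor, against 4.08, 1.03 and 3.24 in summer, with summer animal 2 the lowest. The summer animal that stood apart thus differed between 2 probes of the same gene.

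Srsf4 had the lowest SR difference, on MA10 (7591). Torpid animals had 1.52, 1.88, 2.58, 1.74 and 2.78, against 2.37, 3.33 and 3.76 in summer. Summer animal 1 lay among the torpid animals, and the difference was -1.05 ± 0.43 (SE), or 2.07-fold higher in summer, with an adjusted p of 0.36 in limma. The other Srsf4 probe had a difference of 0.17 ± 0.22 (SE). Srsf3, the smallest SR protein, was lower on 5 of 6 probes, from -0.57 to 0.14, with a smallest adjusted p of 0.51. Srsf11 was lower on 3 of 4 probes, from -0.09 to 0.57.

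Srsf2, an SR protein that binds exonic enhancers, was the only gene with 5 or more probes whose differences all had 1 sign with all animals. Its 6 probes came from 4 clones, so they are not 6 separate measures. They lay between 0.02 and 0.96 and none had an adjusted p below 0.57 in limma. The brightest, on MA07 (8338), gave 3.74, 4.34, 4.76, 4.42 and 4.12 in torpor, against 4.73, 1.46 and 3.77 in summer. Summer animals 1 and 3 lay within the torpid range and summer animal 2 far below it. Without summer animal 2 the difference of this probe was 0.02, against 0.96 with all animals, and the 5 other probes lay between -0.43 and -0.07. With second duplicates, or without torpid animal 1, torpid animal 2 or summer animal 3, 1 of the 6 probes was below 0, the lowest at -0.49 with second duplicates. A clone spotted on both MA10 and MA11 read 4.18 and 2.08 in summer animal 2, with differences of 0.02 and 0.64. Another clone had both its spots on MA08 (3096 and 3579), with differences of 0.590 and 0.594.

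The 80 probes of the other Rbm genes had 5 with an unadjusted p under 0.05 in limma (6.25%), 2 higher and 3 lower, against 11.6% of all tested probes. On 7 of them (8.75%) torpid and summer values did not overlap, 3 higher and 4 lower, against 8.5% of all tested probes. Rbm17, a spliceosome-associated protein that acts in alternative splicing, had the smallest p of all members. Its probe on MA07 (5958) gave -1.79, -2.58, -1.96, -2.05 and -2.10 in torpor, against -1.28, -1.15 and -0.96 in summer. The groups did not overlap, and the difference was -0.96 ± 0.21 (SE), or 1.95-fold higher in summer, with an unadjusted p of 8.3e-04 and an adjusted p of 0.10. With any single animal left out it stayed between -1.04 and -0.84. The probe is dim, at the 13.5th signal percentile, and the brighter Rbm17 probe, on MA07 (5500), had a difference of 0.14 ± 0.23 (SE).

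Rbm25, a regulator of splice site choice that binds U1-associated factors, held the largest difference in size of all members. Its probe on MA07 (3320) gave 1.64, 1.24, 1.35, 1.83 and 1.63 in torpor, against 2.02, 3.43 and 4.20 in summer. The torpid animals were alike, the summer animals spread widely, and the groups did not overlap. The difference was -1.68 ± 0.40 (SE), or 3.20-fold higher in summer, with an adjusted p of 0.15 in limma. Without summer animal 1 it was -2.28 with an adjusted p of 0.0055, and without summer animal 3 it was -1.18 with an adjusted p of 0.27. The 5 other Rbm25 probes had differences from -0.45 to 0.45, and none had an adjusted p under 0.63.

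Rbm42 had 3 probes, all lower in torpor, from -1.03 to -0.03, in the fit of all animals. The last of these, on MA10 (2407), was above 0 in 4 alternative settings, at 0.06 with quantile normalization, 0.017 with first duplicates, 0.014 with the floor on dim values and 1.22 with the replicate number as a block. The probe on MA10 (8060) gave -1.32, -0.32, -0.59, -0.79 and -0.66 in torpor, against 0.35, 0.01 and 0.52 in summer, without overlap. Its difference was -1.03 ± 0.37 (SE), with an adjusted p of 0.29 in limma. Rbm34 had a probe on MA11 (4252) with 2.40, 1.88, 2.27, 1.86 and 2.16 in torpor, against 1.19, 1.66 and 1.06 in summer, also without overlap. That difference was 0.81 ± 0.24 (SE), with an adjusted p of 0.22, and 0.44 with cyclic loess, while the 2 other Rbm34 probes had -0.20 and -0.43.

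Rbm26 had a probe on MA10 (2087) with 2.55, 2.55, 1.73, 2.04 and 1.97 in torpor, against 2.18, 1.09 and 0.09 in summer. Summer animal 1 lay among the torpid animals, and the difference was 1.05 ± 0.45 (SE), with an adjusted p of 0.38 in limma. It was 1.58 without summer animal 1 and 0.53 without summer animal 3. The 4 other Rbm26 probes lay between -0.35 and 0.66. Rbm39, a splicing factor and transcriptional coactivator, was higher on 4 of 5 probes, from -0.07 to 0.59. Rbm7, a subunit of the nuclear exosome targeting complex, had 5 probes from -0.19 to 0.47. The smallest adjusted p of the Rbm39 and Rbm7 probes was 0.46.

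Of the 52 genes with 2 or more tested probes, 26 had differences on both sides of 0. With all animals, 13 had all probes higher in torpor and 13 all lower. These counts were 11 and 13 with quantile normalization and 10 and 14 with cyclic loess. They were 9 and 15 without summer animal 2, and 16 and 10 without summer animal 1. With all animals, the genes with all probes higher included 8 hnRNP genes and Cirbp, Srsf2, Rbm10, Rbm18 and Rbm27. Those with all probes lower included Tra2a, Rbm42, Rbm4, Rbm5, Rbm6 and 4 hnRNP genes. There were 5 genes with at least 2 probes at an unadjusted p under 0.05 in limma. Hnrnph2, Hnrnpu, Hnrnpdl and Tra2a had those probes on the same side of 0, and Hnrnpul2 on opposite sides. The 2 Hnrnph2 probes were spots of 1 clone. Of all tested probes 11.6% had such a p, and the share of all genes with 2 such probes was not counted. For the 9 clones spotted more than once, the seasonal differences of a clone's spots lay from 0.0036 apart (Srsf1) to 0.73 apart (Hnrnpu). Probes are mouse sequences, and close relatives within these families can share hybridisation, so that a probe's gene is uncertain to that extent.

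**Figure D3:**
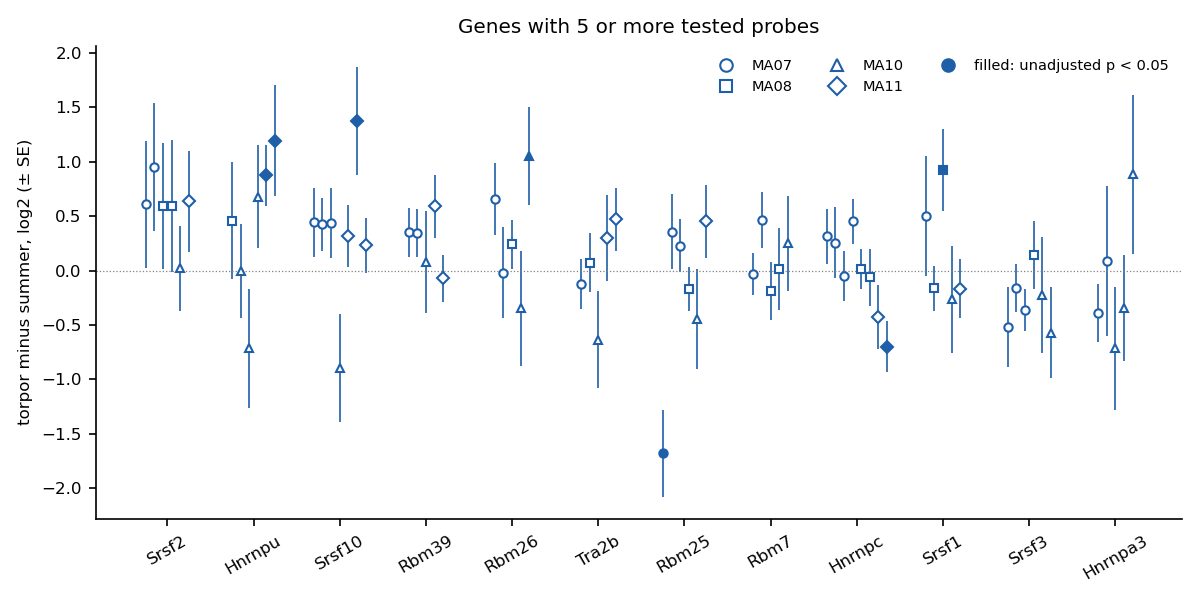
Torpor minus summer difference (log2) with its SE for every tested probe of the genes with 5 or more probes, ordered by the gene's median; marker shapes are the 4 membranes and filled markers have an unadjusted p under 0.05. Probes of 1 gene often lie on both sides of 0, as in Hnrnpc and Rbm25. All 6 Srsf2 probes lie above 0, and without summer animal 2 they lie between -0.43 and 0.02.

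Summer animal 2 was low on many hnRNP probes and on some SR probes. It lay at least 1 below the probe's median over the 8 animals on 23 of 58 hnRNP probes (39.7%) and 8 of 36 SR probes (22.2%), and on 4 of 80 other Rbm probes (5%). Over all tested probes the share was 5.76%, and over all members it was 19.5%. Bright probes had a larger share: above the 80th signal percentile it was 16.8% of all 7675 tested probes, beside 53.1% of 32 hnRNP, 36.8% of 19 SR and 6.25% of 16 other Rbm probes. The 23 hnRNP probes belonged to 14 genes and the 8 SR probes to 4 genes, 5 of the 8 being Srsf2 probes. These counts describe 1 animal and carry no test.

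Summer animal 2 was the lowest of the 8 animals on 30 of 54 hnRNP probes with all values (55.6%) and on 11 of 34 SR probes (32.4%), against 14.1% of all probes with all values. Summer animal 1 was the highest on 16 of the 54 hnRNP probes (29.6%), against 13.3% of all probes. For the hnRNP family, with each gene's brightest probe, the median deviation from the probe's median was 0.01, 0.22, -0.03, 0.35 and -0.01 in torpid animals, against 0.53, -1.11 and 0.07 in summer animals. The torpid animals thus lay between summer animals 1 and 2. For the SR genes the same measure was 0.51 in torpid animal 1 and -0.48 in summer animal 2, about as far from 0, and over all SR probes the median deviation of summer animal 2 was -0.08. For the cold-inducible pair summer animal 2 was at -0.87, and it was the lowest animal on 2 of their 3 probes. For the other Rbm genes the same values lay between -0.05 and 0.09 in all 8 animals.

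**Figure D4:**
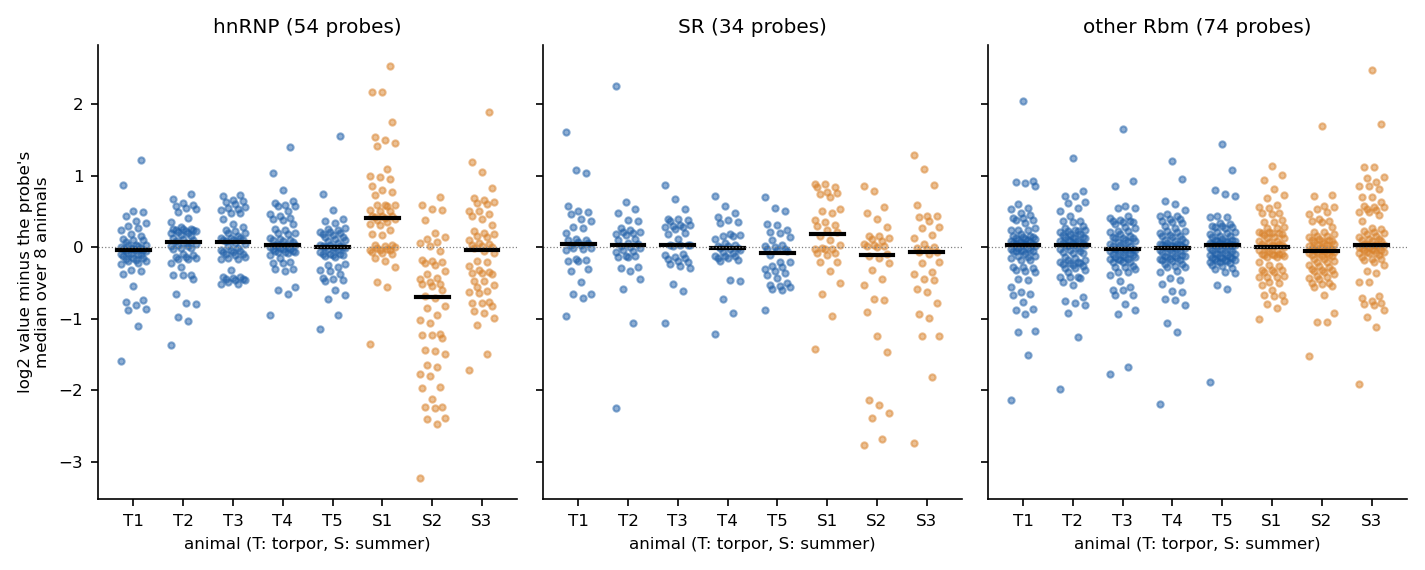
Log2 value minus the probe's median over the 8 animals, for hnRNP, SR and other Rbm probes with values in all animals; blue are torpid animals T1 to T5, orange summer animals S1 to S3, and black lines are medians. Summer animal 2 lies below the others on many hnRNP probes and some SR probes. Its other Rbm values centre near 0.

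The split RNA of summer animal 2 allowed these low values to be read in duplicate. Both duplicates were at least 1 below the probe's median on 13 of the 23 hnRNP probes and on all 8 SR probes. On 9 hnRNP probes only duplicate b was that low, and on 1 only duplicate a. These probes were chosen by the mean of both duplicates, so at least 1 duplicate had to be low. Of all 2170 tested probes chosen in that way, both duplicates were low on 983, only b on 739 and only a on 448. For the 1290 of them above the 80th signal percentile these counts were 711, 425 and 154. The hnRNP duplicates are therefore not read as a trait of that family. The Hnrnpm probe on MA08 (5937) read 3.86 and 0.28 in the duplicates a and b, beside 5.65 and 6.08 in summer animals 1 and 3. In torpid animals it had 4.06, 4.40, 4.18, 4.13 and 4.20, so its summer mean of 4.60 hid values on either side of a tight torpid range. With all animals its difference was -0.41 ± 0.70 (SE), and without summer animal 2 it was -1.67 with an adjusted p of 0.039 in limma.

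The same Hnrnpu clone read 3.36 and 0.52 in duplicates a and b on MA08 and 3.92 and 0.52 on MA11. An Hnrnpk probe on MA07 (2852), for a poly-C binding protein, read 3.51 and 1.47 in the duplicates, against a torpid range of 4.36 to 4.66. Over hnRNP probes, the median absolute difference between the duplicates of summer animal 2 was 0.72, against 0.44 over all tested probes, and 32.1% of hnRNP probes differed by more than 1, against 18.2% of all probes. For summer animal 1 the hnRNP median was 0.41, and for torpid animal 5 it was 0.32. The part of RNA quality or hybridisation in these values was not tested.

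**Figure D5:**
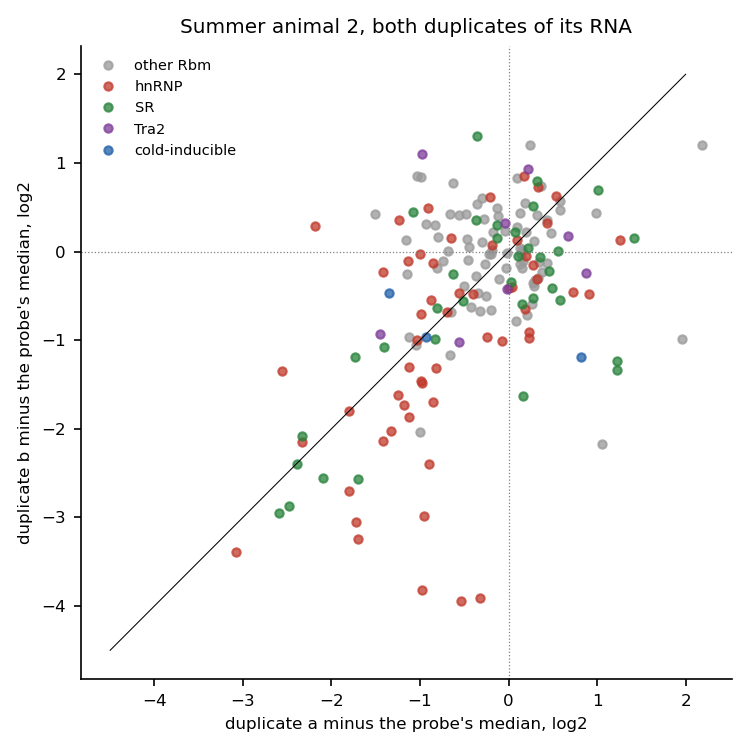
Duplicate b against duplicate a of summer animal 2, each as log2 value minus the probe's median over the 8 animals, for every tested member probe by family; the diagonal marks equal duplicates. Most SR probes that are low lie near the diagonal in the lower left. A group of hnRNP probes lies far below it, lower in duplicate b than in duplicate a.

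Without summer animal 2, 25 of 57 hnRNP probes were higher in torpor, against 35 of 58 with all animals and 46 of 58 without summer animal 1. Of all tested probes, 49.6% were higher without summer animal 2 and 49.1% without summer animal 1. Without summer animal 2, 2 member probes passed the adjusted threshold in limma, Hnrnpm at -1.67 and Srsf10 at 2.12, beside 0.283% of all probes. Without summer animal 1, 3 passed, Rbm25 at -2.28, Hnrnpa2b1 at 1.86 and Hnrnph2 at 1.43, beside 0.943% of all probes. With summer animal 3 or any torpid animal left out, 0 passed. No member probe passed in more than 1 of these fits.

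Related genes were taken as lists, each gene represented by its brightest probe. A list of 13 genes held splicing kinases, nuclear import factors and Ppp1r8. Of these, 11 were measured, with a median difference of -0.04. An unadjusted p under 0.05 in limma was found for 1 of them, beside 11.6% of all probes. Of 8 cold shock domain genes, 4 were measured, with a median of 0.15 and none at that p, and in summer animal 2 their median deviation was -0.89. Of 48 other splicing regulators, 40 were measured, with a median of 0.01, 5 higher and 2 lower at that p, beside 11.6% of all probes. None of these brightest probes passed the adjusted threshold.

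Among all 127 probes of the other splicing regulators, 1 passed the adjusted threshold, beside 0.309% of all tested probes. It was a probe of Qk, which encodes the STAR-family RNA-binding protein quaking. The Qk probe on MA08 (7655) gave 1.56, 1.64, 1.78, 2.01 and 1.72 in torpor, against 0.68, -0.09 and 0.45 in summer. Torpid and summer values did not overlap on this probe, and its difference was 1.39 ± 0.22 (SE) with an adjusted p of 0.032 in limma. It passed in 8 of 17 alternative settings, with differences from 1.18 to 1.56 and adjusted p values from 0.0093 to 0.26. A brighter Qk probe on MA08 (8531) had a difference of 1.40 ± 0.45 (SE) and an adjusted p of 0.26. The 4 other Qk probes had differences of 0.0036 and -0.015 on MA08 (189 and 1670), 0.20 on MA11 (2627) and 0.30 on MA10 (6789), with adjusted p values of 0.76 or more. The passing value therefore belongs to 1 of 6 probes of the gene.

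Fewer cells of a type and less RNA per cell cannot be told apart in whole tissue. The brown adipocyte genes measured were 8 of 15, and the gene for uncoupling protein 1 was not analysed here. The brightest probes of Ppargc1a, Pparg and Cidea lay above the 78th signal percentile. Those of Lpl, Elovl3 and Prdm16 lay at percentiles 74.7, 71.9 and 58.9, and those of Lipe and Dio2 at 14.8 and 7.23. Of the 8, 2 were higher (Lpl and Prdm16) and 6 lower in torpor, with a median of -0.44, and none passed the adjusted threshold. Their summed linear level was 12.4 to 15.7 in torpor and 13.6 to 20.7 in summer. Skeletal muscle markers, 8 of 13 measured, summed to 90.6 to 106 in torpor and 141 to 172 in summer without overlap, and none passed. That sum was led by 1 bright spot, of Tnnc2, with levels of 6.33 ± 0.19 in torpor (SD, n = 5) and 7.10 ± 0.14 in summer (SD, n = 3). The median of the 8 muscle genes was -0.36, with 6 lower and 2 higher, and Actn3 was higher at 0.97 with an adjusted p of 0.34 in limma. Immune markers (8 of 13) summed to 26.4 to 32.9 in torpor and 19.4 to 39.9 in summer, and endothelial markers (6 of 10) to 6.45 to 12.0 and 5.81 to 7.34. Erythroid markers (2 of 6) summed to 3.03 to 9.87 in torpor and 5.14 to 10.1 in summer, and nerve markers (8 of 10) to 94.0 to 118 and 44.4 to 170. The nerve sum was led by the Nefm and Nefl spots, at 5.64 and 6.78 in summer animal 3. All these sums add levels of different spots, so that bright spots weigh most. The part of tissue make-up in the members' values was not tested.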

How the data were processed

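The deposited files hold linear spot intensity values that the authors had already divided by each column's median; this was found from the values, since the sources used here describe neither image analysis nor background treatment. Of all values 3.45% were empty, and of the members' values 2.39%. Values were taken to log2 without a floor, and duplicates of a split RNA, which the labels call technical replicas, were averaged, so that n is 5 torpid and 3 summer animals. The 4 membranes were fitted separately (limma 3.58.1, R 4.3.3, lmFit and eBayes, two-sided), with probes with at least 2 values per group, and p-values were adjusted by Benjamini-Hochberg over the 37848 tested probes together. Intervals are 95%. The median standard error was 0.29 over all probes and 0.34 over the members, and the number of animals limits the precision.

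The members, gene lists and tests were chosen with earlier results of these data known. A gene was named if it was Cirbp, Rbm3, Tra2a or Tra2b, passed the adjusted threshold, was among the 5 smallest unadjusted p of its family (other Rbm, hnRNP, SR) or had 5 or more tested probes, which gave 23 genes. Other genes named were chosen after their values were seen. Symbols come from the platform annotation, which can be old, and 58 of the 64 symbols match a gene of the squirrel annotation. In it Hnrnpd neighbours Hnrnpdl, and Rbm5 neighbours Rbm6.

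Simulated data with the real means and spreads were used to test the fit. Alternatives were other scalings, filters on dim or incomplete probes, raising dim values to each column's 10th percentile, another variance prior, single duplicates, leaving out each animal, the replicate number as a block, another probe per gene, and MA10 left out. Figures were drawn with matplotlib 3.10.9.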

Additional observations from a re-analysis of the deposited data

Results flagged for a closer look

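Among 92 named probes with values in all 5 torpid animals, 4 had a torpid animal far from the other 4 by Dixon's criterion, and chance flags about 1 in 20 groups. On the Tra2b probe on MA07 (1965), torpid animal 4 had -0.84, and the other torpid animals lay between -0.20 and 0.01. On the Rbm26 probe on MA07 (5483), torpid animal 2 had -1.54, and the others lay between -0.81 and -0.71. On the Srsf10 probe on MA07 (8781), torpid animal 1 had 3.26, and the others lay between 2.53 and 2.74. On the Rbm26 probe on MA10 (188), torpid animal 1 had -0.76, and the others lay between -3.37 and -2.84. None of these 4 probes passed the adjusted threshold in limma.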

How the results depend on the processing

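No member probe passed the adjusted threshold in limma under any planned setting that kept all animals, and the probe with the smallest p of each of the 23 named genes kept its direction under every setting run, with 4 of them passing when 1 summer animal was left out. Without single animals, 0 to 3 member probes passed. The count over all probes, 117 with all animals, was 63 with cyclic loess (46 higher and 17 lower), 76 with the floor, 238 without the dimmest 25% of probes, 228 with a trended robust prior, 176 with first duplicates, 38 with second duplicates and 17 to 347 with 1 animal left out. Family medians below take each gene's brightest probe. The median over all member genes, 0.18, was 0.0021 with cyclic loess, 0.021 over each gene's probe medians and -0.086 to 0.21 with 1 animal left out, the lowest without summer animal 2. For other Rbm genes, 0.04 became 0.00079 with quantile scaling, -0.0037 with cyclic loess, 0.082 without the dimmest 25% and without MA10, 0.14 with second duplicates, -0.080 over probe medians and -0.052 to 0.089 with 1 animal left out. For SR genes, 0.47 became 0.036 with cyclic loess, -0.035 over probe medians and 0.025 to 0.86 with 1 animal left out, the lowest without summer animal 2 and the highest without summer animal 1. For hnRNP genes, 0.28 became -0.0030 with cyclic loess and ran from -0.14 without summer animal 2 to 0.53 without summer animal 1. The Tra2 median, -0.29, was -0.69 with cyclic loess and -0.47 to -0.18 with 1 animal left out, and the cold-inducible median, 0.63, was 0.30 without MA10 and 0.40 to 0.86 with 1 animal left out. The cause of these moves was not tested. Animals with the same replicate number did not deviate together (r = 0.020, 0.0073 and 0.0076), and with the number as a replicate block 32 probes passed, none of them a member, and the medians were 0.11 for other Rbm genes and 0.11 for hnRNP genes. Signal over background could not be set, and dim probes such as that of Rbm17 are limited by it.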
